A study of Homo sapiens with 12 samples.

Results

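The inflammatory cytokine genes CXCL1, CXCL2, CXCL5, CXCL8, CCL2, IL6 and IL11, the gene ZC3H12A, which encodes the RNase regnase-1, and the NF-kB feedback genes NFKBIA and TNFAIP3 were followed in lung cancer cells after knockdown of NRF2. The 10 genes were taken from the 57815 genes of the expression files by mapping each Ensembl identifier to its symbol, and all 10 were found. RNA was sequenced from A549 and H2023 cells, labelled as lung adenocarcinoma, and H460 cells, labelled as large cell carcinoma, which are established human lines all described as positive for a KEAP1 mutation. KEAP1 is the negative regulator of NRF2, the transcription factor that NFE2L2 encodes, so NRF2 is persistently active in cells of this kind. Each line was transfected with a control siRNA, in 2 libraries numbered 0 and 1 that the study calls biological duplicates, or with NRF2 siRNA, in 1 library made with siRNA 28 and 1 with siRNA 30, and RNA was purified 48 h later. The spread within an NRF2 siRNA group therefore included the difference between siRNAs. A549 RNA was freed of rRNA without polyA selection, whereas H2023 and H460 RNA was polyA selected, so the protocol and the line cannot be told apart between A549 and the other lines. All cells of a line were measured in bulk, where fewer cells that express a gene and less RNA per cell cannot be told apart.

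NF-kB transcription factors induce many chemokine and cytokine genes after signals from cytokine or Toll-like receptors, and they also induce their own inhibitors, among them IkB-alpha, the product of NFKBIA, and A20, the product of TNFAIP3. Cytokine mRNAs are short-lived. Regnase-1 cleaves stem-loops in the mRNAs of IL6 and other inflammatory genes and thereby limits their output, and the cytokines listed here recruit neutrophils (CXCL1, CXCL2, CXCL5 and CXCL8), recruit monocytes (CCL2) or signal through the gp130 receptor (IL6 and IL11). NRF2 is best known as the activator of antioxidant and detoxification genes, and it has also been described as a repressor of inflammatory cytokine genes.

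The chemokine genes lie together on chromosome 4 of GRCh37, with CXCL8 (ENSG00000169429.6) at 74606236 to 74609433 and CXCL1 (ENSG00000163739.4) at 74735110 to 74737025, both on the plus strand. CXCL5 (ENSG00000163735.6) spans 74861359 to 74864394 and CXCL2 (ENSG00000081041.8) spans 74962757 to 74964913 on the same chromosome, both on the minus strand. CCL2 (ENSG00000108691.5) is at 32582293 to 32584227 on the plus strand of chromosome 17, and IL6 (ENSG00000136244.7) is at 22765503 to 22771621 on the plus strand of chromosome 7. IL11 (ENSG00000095752.2) is on the minus strand of chromosome 19, from 55875750 to 55881831. ZC3H12A (ENSG00000163874.8) is on the plus strand of chromosome 1, from 37940181 to 37949978. NFKBIA (ENSG00000100906.6) is on the minus strand of chromosome 14, from 35870285 to 35873955, and TNFAIP3 (ENSG00000118503.10) is on the plus strand of chromosome 6, from 138188351 to 138204451. These are whole-gene bounds of the GENCODE annotation lifted to GRCh37. CXCL1 and CXCL2 transcripts were 91.1% identical over 1081 aligned bases, and CXCL3, a further gene of this group, was 91.2% identical to each over the 385 and 422 bases that aligned. Reads may be shared among these 3 genes by the abundance estimate, which would make the values of each uncertain. The share of such reads was not measured.

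The bases just upstream of the start site are shown for the members that passed the test in a line (CXCL1, CXCL5, IL6, IL11 and ZC3H12A), for CXCL2 as the close paralogue of CXCL1 and for NFKBIA, which held both motifs searched, since NF-kB acts on the cytokine genes largely through kappaB sites near the promoter. RefSeq promoter windows on GRCh38.p14 were matched by symbol for 9 of the 10 genes, CCL2 being the exception. Each line gives the 120 bases before the start site, 5′ to 3′ on the strand of the gene, and capitals mark matches on either strand to the kappaB consensus or to TGACNNNGC, the core of the antioxidant response element, which NRF2 binds together with small MAF proteins. Overlapping matches were joined. The windows lie at chr4:73869273-73869392 (CXCL1), chr4:74099196-74099315 (CXCL2), chr4:73998678-73998797 (CXCL5), chr7:22727080-22727199 (IL6), chr19:55370464-55370583 (IL11), chr1:37474460-37474579 (ZC3H12A) and chr14:35404750-35404869 (NFKBIA).
CXCL1: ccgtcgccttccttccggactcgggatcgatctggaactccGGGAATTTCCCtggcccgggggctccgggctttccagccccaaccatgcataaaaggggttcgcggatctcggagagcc
CXCL2: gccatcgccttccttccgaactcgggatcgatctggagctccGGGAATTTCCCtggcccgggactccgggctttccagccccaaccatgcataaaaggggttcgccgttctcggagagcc
CXCL5: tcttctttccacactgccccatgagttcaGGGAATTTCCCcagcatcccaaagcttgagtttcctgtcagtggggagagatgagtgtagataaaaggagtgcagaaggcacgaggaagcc
IL6: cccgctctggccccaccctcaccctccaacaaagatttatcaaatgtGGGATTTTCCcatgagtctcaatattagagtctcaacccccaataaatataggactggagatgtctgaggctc
IL11: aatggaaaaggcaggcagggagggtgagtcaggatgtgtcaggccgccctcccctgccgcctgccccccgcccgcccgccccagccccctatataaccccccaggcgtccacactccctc
ZC3H12A: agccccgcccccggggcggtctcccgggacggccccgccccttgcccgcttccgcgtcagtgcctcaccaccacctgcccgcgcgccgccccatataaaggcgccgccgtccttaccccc
NFKBIA: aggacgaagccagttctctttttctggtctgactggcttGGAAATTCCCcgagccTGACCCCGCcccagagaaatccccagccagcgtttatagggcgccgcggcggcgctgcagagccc

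CXCL1, CXCL2 and CXCL5 held the same 11-base run, GGGAATTTCCC, which matched the kappaB consensus on both strands. Over the 250 bases upstream of the start site, 6 of the 9 genes with a window held the kappaB consensus, beside 5.21% of all 35116 RefSeq promoter windows. The other genes with a match were IL6, NFKBIA and TNFAIP3. TGACNNNGC was found in NFKBIA, 1 of the 9, and in 10.9% of all windows. The genes were chosen as cytokine and NF-kB feedback genes, so a high share of kappaB matches among them is not separate evidence. CXCL1, CXCL2 and CXCL5, with their common run, are not independent counts. A match describes the letters of the window and is not a measured binding site.

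Gene levels are FPKM, the fragments of a gene scaled to the length of its transcripts and to the size of the library. NFE2L2 was lower in all 6 NRF2 siRNA libraries, at 5.31 and 7.84 FPKM in A549 with siRNA 28 and siRNA 30, 7.74 and 6.80 FPKM in H2023, and 6.54 and 12.2 FPKM in H460, against 30.9 to 144 FPKM in the 6 control libraries. Low FPKM values gave a relative depth of 92.7% to 108% of the first control library of each line, but the number of reads is unknown. KRT8, an epithelial keratin, was at 553 FPKM or more in every library, whereas NKX2-1, a lung lineage factor, was below 1 FPKM in all 12, and CDH1 and EPCAM, which mark epithelial cell contacts, did not exceed 1.19 FPKM in H460. Of 10 epithelial markers, 6 to 7 reached 1 FPKM in a line, and their summed level was higher with NRF2 siRNA in H2023 (6013 to 6336 against 2811 to 3387 FPKM) and H460 (1763 to 2633 against 1154 to 1346 FPKM) and overlapped in A549. Within a line CDH1 was the 1 epithelial call, in H2023, where 6 markers were tested and 0.91% of all genes were called, and it rose by 2.497 ± 0.24 (log2, SE, limma, adjusted p = 0.0280). Averaged over the lines, KRT18, KRT8 and KRT7 rose, 3 of 5 tested, beside 29.7% of all genes called. Of 8 leukocyte markers, 2 or 3 reached 1 FPKM in a line, while the defining PTPRC and CD3E stayed at or below 0.47 FPKM in every library. The leukocyte sum was 30.1 to 34.3 FPKM with NRF2 siRNA against 16.4 to 16.8 FPKM with control siRNA in A549 and overlapped between groups in H2023 and H460. Of the 2 leukocyte markers tested in H460, CD14, a monocyte marker, was at 17.6 and 19.4 FPKM with NRF2 siRNA against 1.77 and 5.49 FPKM (limma, adjusted p = 0.0288), whereas CD68, a lysosomal protein gene that other cells also express, was at 16.5 and 29.2 FPKM against 36.6 and 39.2 FPKM (adjusted p = 0.141). The sum of 6 fibroblast markers was 8.46 to 11.7 FPKM with NRF2 siRNA against 2.80 to 4.56 FPKM in H460, where COL1A1, a collagen gene, rose by 1.23 ± 0.26 (adjusted p = 0.0329) and DCN did not exceed 0.12 FPKM. It was also higher in A549 (2.41 to 3.68 against 1.63 to 2.37 FPKM) and H2023 (4.14 to 9.09 against 1.82 to 4.07 FPKM), with 0 calls for 1 gene tested in each. The sum of 3 endothelial markers was at or below 0.21 FPKM in every library. The part of these genes in the results was not tested.

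ZC3H12A was lower with NRF2 siRNA in all 3 lines. In A549 it was at 18.4 and 13.1 FPKM in the control libraries, and at 5.33 FPKM with siRNA 28 and 6.10 FPKM with siRNA 30. In H2023 the control libraries held 20.7 and 23.5 FPKM and the NRF2 siRNA libraries 11.2 and 9.30 FPKM. In H460 the control values were 24.7 and 18.8 FPKM and the NRF2 siRNA values 4.94 and 3.83 FPKM. The groups did not overlap in any line, and both siRNAs gave lower values than both controls each time.

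Differences were tested in each line with limma on log2(FPKM + 1), among genes at 1 FPKM or above in at least 2 of the 4 libraries, with Benjamini-Hochberg adjustment over all genes tested and a threshold of 0.05. ZC3H12A fell by 2.07 ± 0.28 (log2, SE, n = 2 per group) in H460, past the threshold (adjusted p = 0.0164). In A549 the difference was -1.30 ± 0.20 (adjusted p = 0.0842) and in H2023 it was -1.04 ± 0.19 (adjusted p = 0.103), neither past it. Over the 3 lines in 1 fit of all 12 libraries, the mean effect was -1.47 ± 0.13 (adjusted p = 5.7e-05), beside 29.7% of genes called. Adjusted p-values of the mean effect are too optimistic, as described with the processing. The exact two-sided permutation of treatment within lines gave an unadjusted p of 0.00926, the smallest that its arrangements allow. The call in H460 was lost without control library 0 (-1.88, adjusted p = 0.156) and without control library 1 (-2.26, adjusted p = 0.102), within a range over its 11 alternatives of 0.000285 to 0.156, while the mean over lines passed in all 18 alternatives. The effect did not differ between lines past the threshold (F test over the 3 effects, adjusted p = 0.148). The study selected ZC3H12A, on these libraries among others, as a gene that NRF2 knockdown lowers, so its direction here is not independent evidence. Its own test called the gene lower in all 3 lines, unlike the fits here in A549 and H2023. By ChIP in A549, the study also reports an NRF2-dependent enhancer at the ZC3H12A locus. Knockdown of the transcription factor CEBPB reduced the enhancer mark H3K27ac there.

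**Figure D1:**
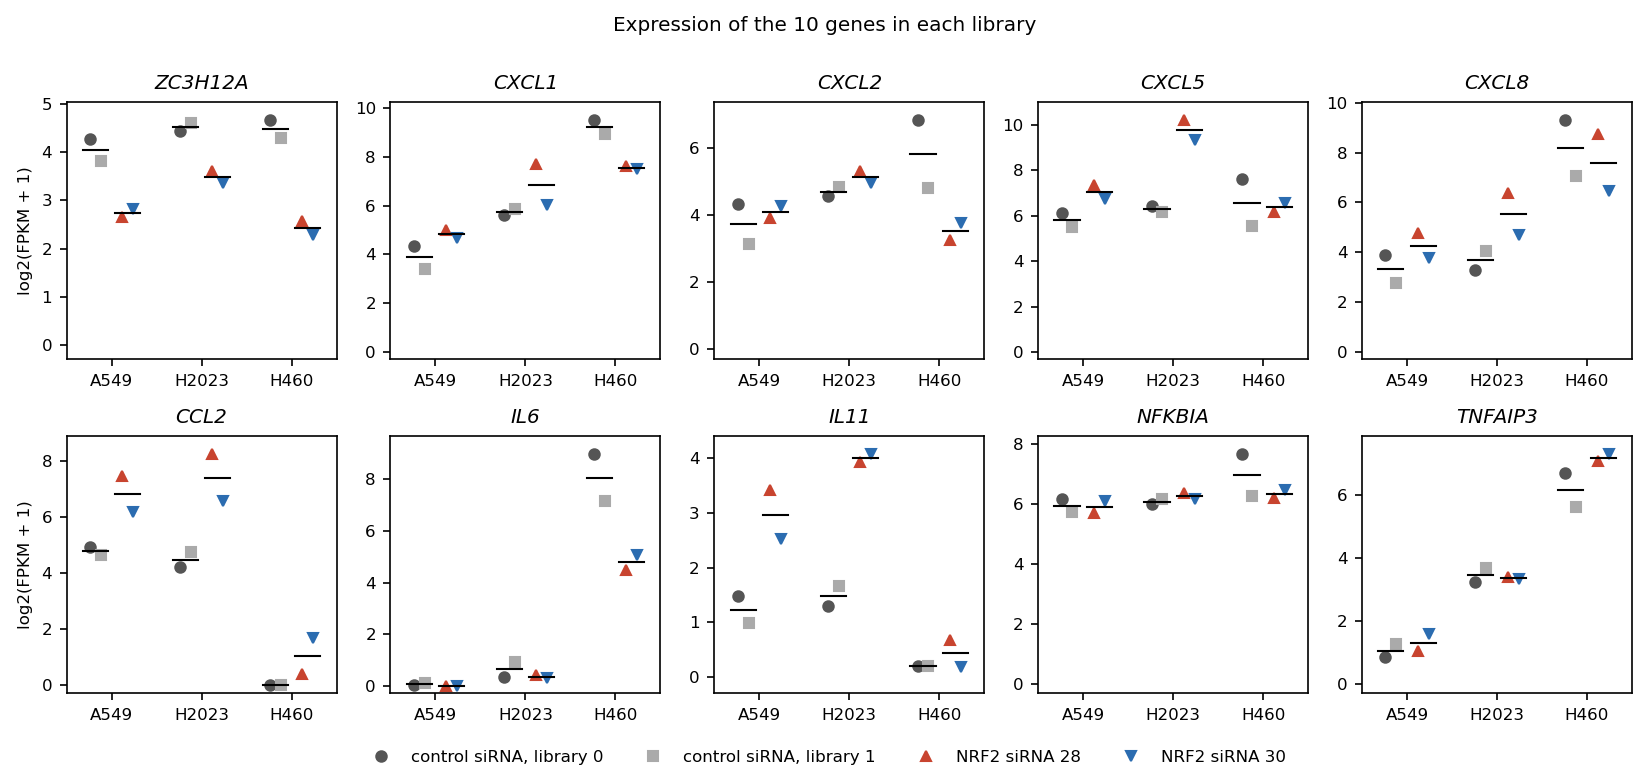
Expression of the 10 genes in the 12 libraries, as log2(FPKM + 1) on the vertical axis of each panel, with the lines on the horizontal axis. Grey points are the control libraries, coloured triangles the NRF2 siRNA libraries, and bars the group means. ZC3H12A lay lower with both siRNAs in each line, CXCL5, CCL2 and IL11 lay higher in A549 and H2023, and IL6 lay lower in H460.

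Among the chemokine members, CXCL5, which encodes a neutrophil-attracting ligand of CXCR2, reached the highest FPKM in H2023. There it was at 84.3 and 70.7 FPKM in the control libraries, 1167 FPKM with siRNA 28 and 643 FPKM with siRNA 30. In A549 it was at 67.9 and 43.7 FPKM with control siRNA and at 160 and 105 FPKM with the NRF2 siRNAs. The NRF2 siRNA libraries were above both controls in these 2 lines. In H460 the control libraries were at 192 and 45.7 FPKM and enclosed the values of 71.3 and 93.0 FPKM with NRF2 siRNA, so the groups overlapped. CXCL5 rose by 3.47 ± 0.31 (log2, SE) in H2023, an 11.7-fold ratio of the group means (adjusted p = 0.0238). The difference was 1.23 ± 0.29 in A549 (adjusted p = 0.196) and -0.20 ± 0.62 in H460 (adjusted p = 0.849).

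CCL2, the monocyte chemoattractant MCP-1, was at 29.1 and 23.7 FPKM in A549 control libraries, 174 FPKM with siRNA 28 and 71.3 FPKM with siRNA 30. In H2023 it was at 17.5 and 25.6 FPKM with control siRNA, and at 298 and 93.5 FPKM with siRNA 28 and siRNA 30. In H460 it was listed at 0 in both control libraries and at 0.31 and 2.17 FPKM with the NRF2 siRNAs, too low to be tested. All 6 NRF2 siRNA libraries were above the controls of their line, and the siRNA 28 library was the higher of the pair in A549 and H2023 and the lower in H460. The differences in A549, 2.04 ± 0.41 (adjusted p = 0.149), and H2023, 2.92 ± 0.55 (adjusted p = 0.103), did not pass the threshold line by line.

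IL11, a gp130 cytokine, was low in control cells and higher with NRF2 siRNA in A549 and H2023. In A549 it was at 1.78 and 0.98 FPKM in the control libraries, 9.73 FPKM with siRNA 28 and 4.75 FPKM with siRNA 30. In H2023 the control values were 1.46 and 2.18 FPKM and the NRF2 siRNA values 14.3 and 16.0 FPKM. In H460 its 4 libraries lay between 0.14 and 0.59 FPKM, below the limit for testing. IL11 rose by 2.53 ± 0.23 (log2, SE) in H2023 (adjusted p = 0.0256), while the difference of 1.74 ± 0.34 in A549 did not pass (adjusted p = 0.145). With 1 control library under 1 FPKM, IL11 met the limit for testing in A549 through its NRF2 siRNA libraries, where it is high.

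CXCL5 and IL11 were the members called in H2023, 2 of the 9 tested, both higher, where 0.327% of all 14059 genes tested were called higher and 0.91% in either direction. Without control library 0 of H2023 neither passed, with differences of 3.60 for CXCL5 (adjusted p = 0.0797) and 2.34 for IL11 (adjusted p = 0.192). Without control library 1 they were 3.35 (adjusted p = 0.0941) and 2.71 (adjusted p = 0.119), so the sizes stayed close to those with both controls, while the genes called fell from 128 to 0 and 12. Over 11 alternatives the adjusted p ranged from 2.46e-05 to 0.209 for CXCL5 and from 0.000741 to 0.192 for IL11. In A549 limma called 0 of the 9 members tested, beside 0.676% of 13898 genes, with 5 members at an unadjusted p under 0.05, beside 13.3% of genes. The same unadjusted limit was met by 16.9% of genes in H2023 and 33.7% in H460. Groups that did not overlap were common among all genes: NRF2 siRNA was above control for 4 members in A549 and 6 in H2023, beside 25.2% and 27% of genes tested, and below it for 1 member in each line, beside 20.5% and 22%.

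The differences of members that did not pass in A549 or H2023 moved when 1 NRF2 siRNA library was left out. Such fits assume the remaining library to vary like the controls, and more genes over all were called in them, so no call is drawn from them. In A549 the differences without siRNA 30 were -1.38 for ZC3H12A and 2.19 for IL11. CCL2 was there at 1.41 without siRNA 28 and 2.68 without siRNA 30. In H2023, ZC3H12A was at -1.16 and -0.92 and CCL2 at 2.09 and 3.76 without siRNA 28 and without siRNA 30. CXCL1 and CXCL8 were in H2023 at 1.95 and 2.72 without siRNA 30 and at 0.302 and 1.03 without siRNA 28. In A549 the omission of 1 library gave 0.489 to 1.46 for CXCL1 and 0.358 to 1.51 for CXCL8.

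A549 and H2023 were also fitted together on their 8 libraries, an analysis added after it was seen that CCL2 and IL11 could not be tested in H460. The mean effect over these 2 lines was 2.35 ± 0.24 for CXCL5 (adjusted p = 0.00136), 2.48 ± 0.39 for CCL2 (adjusted p = 0.0104), 2.14 ± 0.22 for IL11 (adjusted p = 0.00168) and -1.17 ± 0.14 for ZC3H12A (adjusted p = 0.00333). These 4 of 9 members passed, beside 8.1% of the 12279 genes tested, and IL11, which entered through its NRF2 siRNA libraries in A549, had an adjusted p of 0.0278 with no filter on low values. CCL2 no longer passed without A549 control library 1 (2.41, adjusted p = 0.0689) or H2023 control library 0 (2.35, adjusted p = 0.0501), in a range over its 14 alternatives of 0.000467 to 0.0959. The exact permutation over 2 lines cannot go below p = 0.0556, its value for each of these 4 genes and for CXCL1.

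IL6, a gp130 cytokine that induces acute phase proteins, exceeded 1 FPKM in H460 only. It was at 502 and 142 FPKM in the H460 control libraries, 21.2 FPKM with siRNA 28 and 32.9 FPKM with siRNA 30. In A549 it did not exceed 0.084 FPKM, and in H2023 it was at 0.27 and 0.89 FPKM with control siRNA and 0.32 and 0.23 FPKM with the NRF2 siRNAs, so it was not tested there. IL6 fell by 3.29 ± 0.57 (log2, SE) in H460 (adjusted p = 0.0233), with a control mean 11.9 times the NRF2 siRNA mean. The difference was -2.38 without control library 0 (adjusted p = 0.121) and -4.19 without control library 1 (adjusted p = 0.0509), and it ranged from 0.000411 to 0.196 in adjusted p over 11 alternatives. Both siRNA libraries lay below both control libraries.

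CXCL1, a neutrophil chemoattractant, was lower with NRF2 siRNA in H460 and higher in the other lines. In H460 it was at 723 and 490 FPKM in the control libraries and at 193 and 177 FPKM with siRNA 28 and siRNA 30. In H2023 it was at 48.2 and 56.8 FPKM with control siRNA, 204 FPKM with siRNA 28 and 64.8 FPKM with siRNA 30. In A549 the control values were 19.5 and 9.47 FPKM and the NRF2 siRNA values 31.1 and 24.8 FPKM. The groups did not overlap in any line, lying below control in H460 and above it elsewhere. CXCL1 fell by 1.68 ± 0.27 (log2, SE) in H460 (adjusted p = 0.0215), and the differences of 0.97 ± 0.33 in A549 (adjusted p = 0.315) and 1.12 ± 0.52 in H2023 (adjusted p = 0.356) did not pass. Without control library 0 of H460 the difference was -1.40 (adjusted p = 0.190) and without control library 1 it was -1.96 (adjusted p = 0.107), in a range of 0.00188 to 0.190 over 11 alternatives.

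CXCL2, its close paralogue, was at 113 and 26.8 FPKM in H460 control libraries and at 8.64 and 12.6 FPKM with the NRF2 siRNAs. In H2023 it was at 22.5 and 27.6 FPKM with control siRNA and at 38.5 and 30.4 FPKM with NRF2 siRNA. In A549 the control values of 19.2 and 7.85 FPKM enclosed those of 14.1 and 18.4 FPKM with NRF2 siRNA. Thus the groups overlapped in A549 and not in the other lines. The differences were -2.30 ± 0.62 in H460 (adjusted p = 0.0574), 0.44 ± 0.20 in H2023 (adjusted p = 0.353) and 0.35 ± 0.40 in A549 (adjusted p = 0.753).

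CXCL8, which encodes interleukin 8, differed more between replicates than between treatments in H460. Its control libraries were at 631 and 133 FPKM, with 427 FPKM under siRNA 28 and 86.2 FPKM under siRNA 30. In H2023 it was at 8.73 and 15.7 FPKM with control siRNA and at 82.7 and 25.0 FPKM with siRNA 28 and siRNA 30. In A549 the values were 13.98 and 5.76 FPKM with control siRNA, and 26.2 and 12.6 FPKM with NRF2 siRNA. Only in H2023 did the groups not overlap. The differences were -0.59 ± 0.92 in H460 (adjusted p = 0.695), 1.87 ± 0.59 in H2023 (adjusted p = 0.217) and 0.93 ± 0.48 in A549 (adjusted p = 0.476).

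NFKBIA, the NF-kB inhibitor, was at 70.7 and 52.7 FPKM in A549 controls and at 51.2 and 67.5 FPKM with NRF2 siRNA. In H2023 it was at 62.8 and 71.5 FPKM with control siRNA and at 82.4 and 70.8 FPKM with NRF2 siRNA. In H460 the control libraries were far apart, at 202 and 77.4 FPKM, with 73.7 and 88.8 FPKM under NRF2 siRNA. The groups overlapped in every line, and the differences of -0.05 ± 0.21, 0.19 ± 0.17 and -0.63 ± 0.44 (A549, H2023 and H460) had adjusted p-values of 0.941, 0.630 and 0.370.

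TNFAIP3, the gene of the ubiquitin-editing enzyme A20, was at 0.81 and 1.39 FPKM in A549 controls and at 1.05 and 1.997 FPKM with NRF2 siRNA. In H2023 it was at 8.45 and 11.9 FPKM with control siRNA and at 9.53 and 9.13 FPKM with NRF2 siRNA. In H460 it was higher with NRF2 siRNA, at 136 and 158 FPKM against 103 and 48.1 FPKM. The groups did not overlap in H460 alone, where the difference of 1.04 ± 0.37 did not pass the threshold (adjusted p = 0.104) and was 1.58 without control library 0 and 0.503 without control library 1. The differences in A549 and H2023 were 0.25 ± 0.26 (adjusted p = 0.733) and -0.10 ± 0.23 (adjusted p = 0.879).

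In H460, 3 of the 8 members tested were called, all lower (ZC3H12A, CXCL1 and IL6), beside 6.86% of 13446 genes called lower and 14% in either direction. NRF2 siRNA did not overlap control and lay below it for 4 members, beside 31.6% of all genes, and above it for 1, beside 31.1%. Control library 0 stood above control library 1 for all 8 members, beside 54.8% of genes, and by over 2-fold in FPKM + 1 for 6 of them (CXCL2, CXCL5, CXCL8, IL6, NFKBIA and TNFAIP3), beside 1.94% of the 13446 genes. In A549 it stood higher for 8 of 9 members, beside 69.6% of genes, and by over 2-fold for 2, CXCL2 and CXCL8, beside 0.705%. In H2023 it stood higher for 1 of 9, beside 52.8%, and by over 2-fold for 0, beside 0.903%. Without control library 0 of H460, the differences of CXCL5, CXCL8 and NFKBIA were 0.82, 0.53 and 0.06, opposite in sign to those with both controls, that of CXCL2 was -1.28, and 0 members passed. Without control library 1, 0 members passed as well. Over all genes, 0 and 5 were called in these fits in place of 1879.

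**Figure D2:**
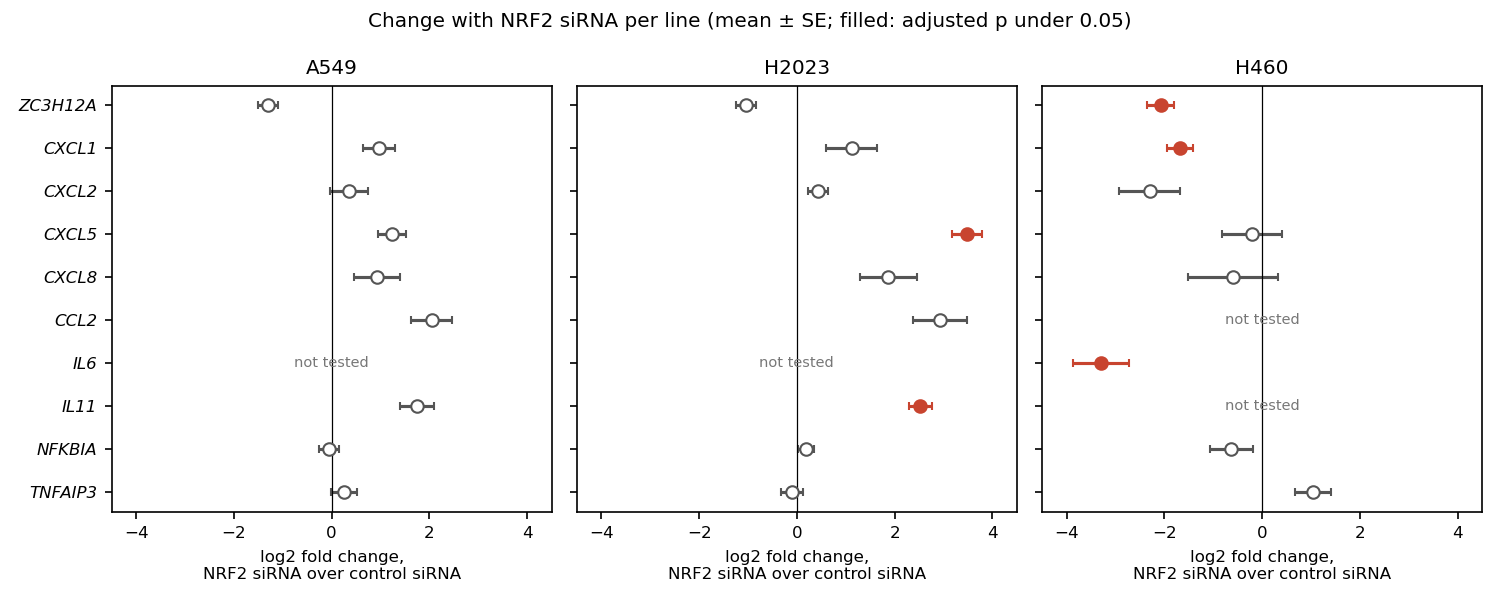
Difference between NRF2 siRNA and control siRNA for the 10 genes in each line, as log2 fold change on the horizontal axis with bars of 1 SE, filled and red where the adjusted p was under 0.05. ZC3H12A lay left of 0 in all 3 lines, and CXCL1 lay right of 0 in A549 and H2023 and left of it in H460.

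Whether the effect of NRF2 siRNA differed between lines was tested directly in the fit of 12 libraries, which could include 7 members. The F test over the 3 effects called 0 of 7, beside 2.51% of 11571 genes, with 4 members at an unadjusted p under 0.05 (21.2% of genes) and adjusted p-values of 0.0624 for CXCL1 and 0.0630 for CXCL5. Between H2023 and H460, which share a protocol, the effects differed by 3.67 ± 0.78 for CXCL5 (adjusted p = 0.0355) and by 2.80 ± 0.66 for CXCL1 (adjusted p = 0.0489), beside 3.32% of genes called. Over 18 alternatives the adjusted p of that difference ranged from 0.0111 to 0.122 for CXCL5 and from 0.0231 to 0.158 for CXCL1, and it passed in 8 and 5 of them. Without H460 control library 0 the differences were 2.65 (adjusted p = 0.0761) and 2.52 (adjusted p = 0.157). CXCL2 differed by 2.74 ± 0.80 (adjusted p = 0.0798), with a range of 1.72 to 3.76 when 1 library was left out. Between A549 and H2023, limma called 0 of 7 members, beside 0.00864% of genes, with 1 at an unadjusted p under 0.05 (5.21% of genes), CXCL5 (adjusted p = 0.788). Between A549 and H460, the limma differences were 2.65 ± 0.66 for CXCL1 (adjusted p = 0.0567), 2.66 ± 0.80 for CXCL2 (adjusted p = 0.0912) and 1.44 ± 0.78 for CXCL5 (adjusted p = 0.309). An unadjusted p under 0.05 was met there by 3 of 7 members, beside 22.5% of genes. Averaged over the lines, 2 of the 7 members passed, ZC3H12A and CXCL5 (1.501 ± 0.32, adjusted p = 0.0064), beside 29.7% of genes. CXCL5 did not pass without the filter on low values (adjusted p = 0.0522), and its exact permutation over the 3 lines gave p = 0.0741.

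The levels of the members under control siRNA differed widely between H2023 and H460, the lines prepared alike. IL6 was at 322 ± 254 FPKM in H460 and 0.577 ± 0.441 FPKM in H2023 (SD, n = 2 each), CXCL8 at 382 ± 352 and 12.2 ± 4.91 FPKM, and CXCL1 at 607 ± 165 and 52.5 ± 6.06 FPKM. TNFAIP3 was at 75.6 ± 38.8 FPKM in H460 and 10.2 ± 2.46 FPKM in H2023. CCL2 had the opposite order, at 21.5 ± 5.74 FPKM in H2023 and listed at 0 in H460. The control libraries of the lines did not overlap for these 5 genes, NFKBIA and IL11, 7 of the 10 members, a share close to the 76.7% of 14039 genes for which the same held. Those of CXCL2, CXCL5 and ZC3H12A overlapped.

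To ask whether siRNA 28 and siRNA 30 acted alike, their 6 libraries were fitted with line as a covariate. CXCL8 was higher with siRNA 28 than with siRNA 30 in each line, with siRNA 28 to siRNA 30 ratios of 2.08 (A549), 3.31 (H2023) and 4.96 (H460). Its difference of 1.66 ± 0.25 (log2, SE) did not pass (adjusted p = 0.126), and limma called 0 of the 10 members, beside 0% of 15716 genes, with CXCL8 alone at an unadjusted p under 0.05 (18.2% of genes). It passed when every library of the fit had to reach 1 FPKM (adjusted p = 0.0423) and without either A549 library (1.99, adjusted p = 0.0235 without siRNA 28 and 0.0221 without siRNA 30), in a range of 0.0221 to 0.527 over 11 alternatives. CCL2 was higher with siRNA 28 by 2.44 times in A549 and 3.19 times in H2023, and CXCL1 by 1.25 and 3.16 times. In H460 the same ratio was 0.143 for CCL2, where its values were low, and 1.09 for CXCL1. By FPKM + 1, siRNA 28 was over 2-fold higher for 2, 3 and 1 members tested (A549, H2023 and H460), beside 2.07%, 4.05% and 4.94% of genes. NFE2L2 itself stood at 0.677, 1.14 and 0.537 times the siRNA 30 value under siRNA 28 (A549, H2023 and H460). The relation of its residual level to the cytokines was not tested.

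**Figure D3:**
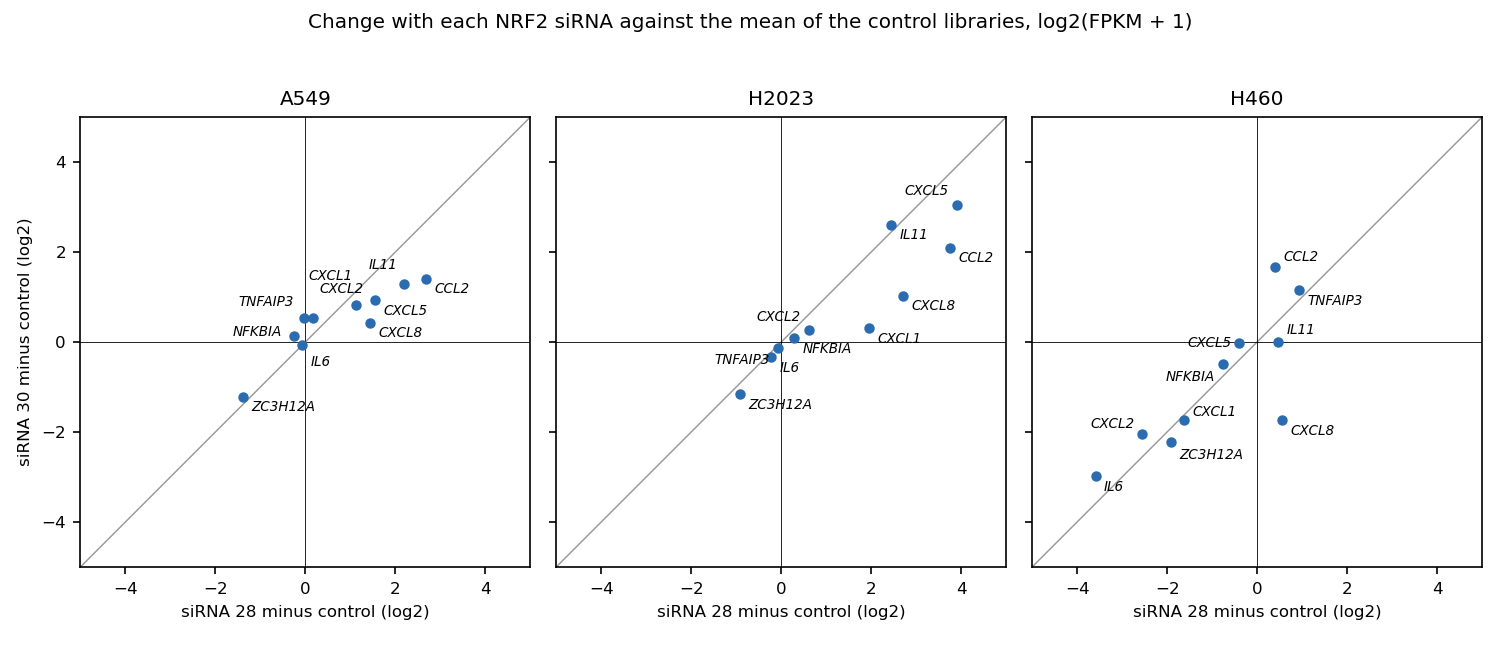
Change of each gene with siRNA 28 (horizontal axis) and siRNA 30 (vertical axis) against the mean of the control libraries of the line, both as differences of log2(FPKM + 1), with the diagonal of equal change. Points below the diagonal changed more upward with siRNA 28, as CXCL8 did in all 3 lines.

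Other chemokine and cytokine genes were summarised from a list, of which few were expressed. The counts of calls in H460 for these and the following lists stand beside 14% of all genes called there, 6.86% lower and 7.12% higher, and their counts at an unadjusted p under 0.05 beside 13.3% of genes in A549, 16.9% in H2023 and 33.7% in H460. In H460, of 3 other chemokines tested, CXCL3, the paralogue of CXCL1 and CXCL2, fell by 3.53 ± 0.79 (log2, SE, adjusted p = 0.0368), and CXCL16, a transmembrane chemokine, rose by 1.98 ± 0.39 (adjusted p = 0.0303). CXCL3 was at 88.5 and 13.1 FPKM in the control libraries and at 1.84 and 2.36 FPKM with the NRF2 siRNAs. Of 6 other cytokines tested, IL18, a substrate of caspase-1, rose by 2.16 ± 0.32 (adjusted p = 0.0188), and IL1A, an epithelial alarmin, was called lower (adjusted p = 0.0485). IL1A was at 5.88 and 1.57 FPKM with control siRNA and at 0.25 and 0.036 FPKM with the NRF2 siRNAs, so it entered the test through its controls alone, and its call was lost without a trend (adjusted p = 0.0508) and without siRNA 30 (adjusted p = 0.0837). Neither group held a call in A549 (2 chemokines and 7 cytokines tested, with 1 and 2 at an unadjusted p under 0.05) or H2023 (3 and 8 tested, with 0 and 3). In H460 2 of 12 cytokine receptor genes were called, a share close to that of all genes (14%), both higher: IL6ST, which encodes gp130, by 1.25 ± 0.22 (adjusted p = 0.0233) and IL1RAP, the IL-1 co-receptor, by 1.21 ± 0.28 (adjusted p = 0.0387). In A549 and H2023 0 of 11 receptor genes were called, with 3 and 7 at an unadjusted p under 0.05, and the list medians were -0.02, -0.28 and 0.47 (A549, H2023 and H460). The smallest unadjusted p-values in H2023 belonged to IL6ST, at 0.92 ± 0.20 (adjusted p = 0.128), and to IL6R, the IL-6 receptor, at -1.27 ± 0.28 (adjusted p = 0.133).

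The NF-kB signalling core, 19 genes tested in each line, held 0 calls by limma in any line (A549, H2023 and H460), with 2, 4 and 3 genes at an unadjusted p under 0.05 (13.3%, 16.9% and 33.7% of all genes) and list medians of -0.05, 0.05 and -0.05 on the log2 scale, where all genes had 0.02, 0.02 and -0.01. The smallest unadjusted p-values belonged to RELB in A549, with a difference of 0.70 ± 0.17 (adjusted p = 0.210), and to RELA in H2023, with 0.64 ± 0.17 (adjusted p = 0.170). Among NF-kB feedback and response genes, 1 of 15 in H460 was called (14% of all genes), TNFAIP2, which rose by 1.25 ± 0.23 (adjusted p = 0.0252). It was at 167 and 188 FPKM with control siRNA and at 456 and 395 FPKM with the NRF2 siRNAs. In A549 and H2023 0 of 14 and 0 of 16 of these genes were called, with 2 and 4 at an unadjusted p under 0.05.

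**Figure D4:**
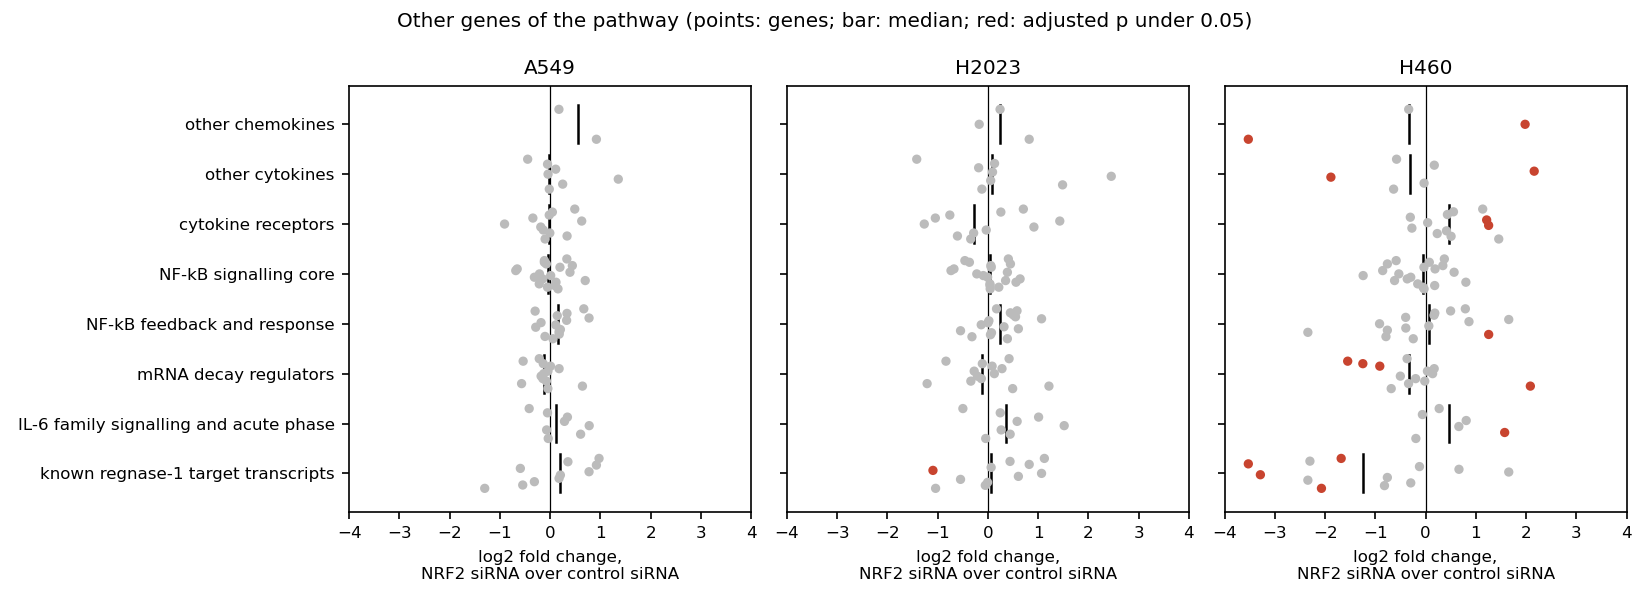
Log2 fold change with NRF2 siRNA of the other genes of the pathway by list and line, with 1 point for each gene tested, a bar for the median of the list, and red for an adjusted p under 0.05. The calls sit in H460 except for ID1 in H2023, and those of a list lie on both sides of 0 for chemokines, cytokines (IL1A lower, IL18 higher) and mRNA decay regulators.

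Of the mRNA decay regulators, 4 of 13 tested in H460 were called, 3 lower and 1 higher, beside 6.86% and 7.12% of all genes. ZFP36L1, which encodes a protein that binds AU-rich elements and promotes decay, rose by 2.08 ± 0.23 (adjusted p = 0.0127), from 12.6 and 10.4 FPKM with control siRNA to 48.8 and 55.0 FPKM with the NRF2 siRNAs. ELAVL1, which encodes HuR, a stabiliser of such mRNAs, fell by 1.55 ± 0.21 (adjusted p = 0.0175), from 61.4 and 68.8 FPKM to 22.6 and 20.5 FPKM. HNRNPD, the gene of AUF1, fell by 1.25 ± 0.25 (adjusted p = 0.0313). Neither A549 nor H2023 held a call among 13 genes each, with 2 and 4 at an unadjusted p under 0.05. In A549 and H2023, ZFP36L1 was also higher in both NRF2 siRNA libraries (0.64 ± 0.20 and 1.22 ± 0.19) and ELAVL1 lower in both (-0.54 ± 0.14 and -0.83 ± 0.16), without passing in either line (adjusted p = 0.282, 0.0698, 0.230 and 0.111 in that order). On average over the lines 5 of the 13 passed, beside 29.7% of all genes, with HNRNPD, KHSRP and ZFP36 lower and ZFP36L1 at 1.31 ± 0.12 (adjusted p = 6.8e-05) and ELAVL1 at -0.97 ± 0.09 (adjusted p = 6.9e-05). Adjusted p-values of this average are too optimistic. For KHSRP and HNRNPD it rested mainly on H460: KHSRP was at 0.008, 0.085 and -0.91 (A549, H2023 and H460) and HNRNPD at -0.14, -0.11 and -1.25. ELAVL1 is among the genes that the study selected on these libraries and called lower in all 3 lines, so its direction is not independent evidence. The same average called 0 of 2 other chemokines, 3 of 5 other cytokines, 3 of 10 receptors, 3 of 19 genes of the NF-kB core, 3 of 14 feedback and response genes, 2 of 6 IL-6 signalling genes, 2 of 10 regnase-1 targets and 5 of 8 interferon response genes.

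**Figure D5:**
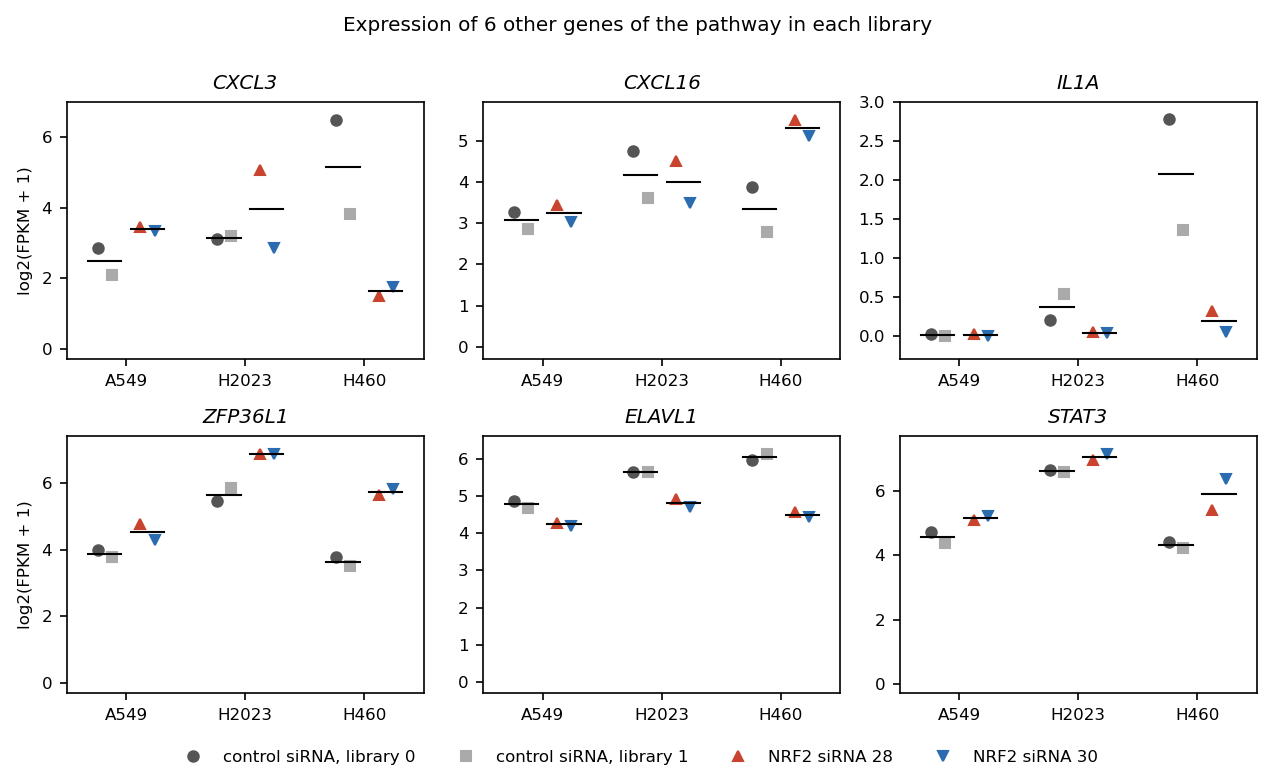
Expression of CXCL3, CXCL16, IL1A, ZFP36L1, ELAVL1 and STAT3 as log2(FPKM + 1) in the 12 libraries, with lines on the horizontal axis, grey points for control libraries, coloured triangles for NRF2 siRNA libraries and bars for group means. In H460 the groups did not overlap for any of the 6 genes, with CXCL3, IL1A and ELAVL1 lower and CXCL16, ZFP36L1 and STAT3 higher with NRF2 siRNA.

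Transcripts known as targets of regnase-1 were listed together with ZC3H12A itself, whose mRNA regnase-1 also cleaves. In H460 4 of 12 tested were called, all lower (IL6, CXCL1, CXCL3 and ZC3H12A), beside 6.86% of all genes called lower, with a median of -1.25 (log2) against -0.01 over all genes. IL6, CXCL1 and ZC3H12A are the member calls of H460 counted again, and CXCL3 is the close paralogue of CXCL1. In H2023 1 of 11 was called, ID1, an inhibitor of helix-loop-helix factors, which fell by 1.09 ± 0.14 (adjusted p = 0.04998, with a range of 0.00598 to 0.427 over its 11 alternatives), beside 0.91% of genes called in either direction and a list median of 0.07. In A549 0 of 10 were called, with 6 at an unadjusted p under 0.05 and a median of 0.19. STAT3, the transcription factor downstream of gp130, was the 1 call among 6 IL-6 signalling and acute phase genes in H460, where it rose by 1.57 ± 0.34 (adjusted p = 0.0357), from 20.4 and 17.6 FPKM to 41.6 and 81.9 FPKM. In A549 and H2023 0 of 8 such genes were called, with 3 and 4 at an unadjusted p under 0.05. Without control library 0 of H460 none of the pathway genes called in that line passed, and without control library 1 CXCL3 alone did (-4.86, adjusted p = 0.0386, against -2.20 without library 0). IL1A could not be tested without either.

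Interferon response genes were followed beside the cytokines because transfected double-stranded RNA can induce them. The summed level of 12 such genes was 137 to 140 FPKM in H460 control libraries and 219 to 344 FPKM with NRF2 siRNA, and 2 of 11 tested were called higher, beside 7.12% of all genes, OAS1 (1.30 ± 0.27, adjusted p = 0.0325) and ISG15 (1.31 ± 0.33, adjusted p = 0.0466). In H2023 the sum was 154 to 198 FPKM against 244 to 249 FPKM, and in A549 113 to 126 FPKM against 117 to 144 FPKM. Limma called 0 of 11 and 0 of 8 there, with 4 and 3 at an unadjusted p under 0.05. The part of this response in the cytokine differences was not tested.

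The pattern of ZC3H12A over the 12 libraries, after subtracting the mean of each line, was most like that of AHCYL1, TXNL1, TRIM16L, EIF2D and GCNT3 among 11570 genes, with Pearson r of 0.985, 0.982, 0.978, 0.977 and 0.971. These correlations describe libraries that share the contrast of control and NRF2 siRNA. TRIM16L fell in all 3 lines, by 3.43, 3.46 and 4.44 (A549, H2023 and H460, adjusted p = 0.00321, 0.00713 and 0.0035), and GCNT3, a mucin-type glycosyltransferase, fell by 1.24 in H460 (adjusted p = 0.0306). AHCYL1, TXNL1 and EIF2D had differences between -0.75 and -0.24, none past the threshold. Over the same libraries the r of ZC3H12A with the other members tested lay between -0.56 for TNFAIP3 and 0.57 for CXCL2.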

How the data were processed

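RNA sequencing of 12 libraries from A549, H2023 and H460 cells was analysed from the values that the authors deposited. The authors deposited FPKM per gene and library, which are scaled to transcript length and library size. The methods of the study name TopHat and Cufflinks on hg19, while the submitters' processing notes list STAR 2.5.3a, cutadapt 1.15, Cuffnorm, HTSeq and DESeq2 with hg19 and GRCh37.p13, so the aligner behind the FPKM files is uncertain. Tables of the authors' own comparisons, with mean normalised counts, fold changes and p-values, were not used. A549 RNA was rRNA depleted and unselected RNA classes enter its scale. Relative depth within a line was read from the FPKM ratios of genes below 0.3 FPKM. Depth in reads is unknown, so no counting interval was computed.

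Values under 1e-06 FPKM (12710) were set to 0, and 96.1% of the identifiers had a symbol in the GENCODE annotation lifted to GRCh37. No pair of libraries held identical values. Moderated two-sided tests used limma 3.58.1 with an intensity trend under R 4.3.3 on log2(FPKM + 1), a scale that understates changes of low genes. A gene was tested with FPKM of at least 1 in 2 of 4 libraries of a line, in 2 libraries of every line for the fit of 12 libraries, or in 2 of the 6 NRF2 siRNA libraries. P-values were adjusted by Benjamini-Hochberg over all genes tested, at a threshold of 0.05. The 4 libraries of a line were fitted alone, which left 2 residual degrees of freedom, and the average effect and its difference between lines in 1 fit of 12 libraries. On simulated data with unequal spread between lines the average effect gave more false calls than the threshold allows, so its adjusted p-values are too optimistic. Exact permutations exchanged treatment within lines. All fits were tested on simulated data. The files, promoters, alignments and figures were handled with Python 3.11.15, numpy 2.4.6, pandas 2.3.3, Biopython 1.88 and matplotlib 3.10.9.

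The members and gene lists were chosen with earlier results of these data known. All 10 members were described, and from the other lists at most 3 genes called in a line were named, by smallest adjusted p, or at most 2 by unadjusted p where a list held no call. NFE2L2 and the 5 genes most like ZC3H12A were named too. Symbols of CCL5, IKBKG, SOD2 and PECAM1 were not matched and these genes were not analysed here. Alternatives were a pseudocount of 0.1, other filters, no trend, a replicate block, 1 fit for all lines, FPKM rescaled without mitochondrial transcripts and the omission of each library.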

Additional observations from a re-analysis of the deposited data

Results flagged for a closer look

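The effect of NRF2 siRNA on CXCL5 and CXCL1 differed between H2023 and H460 by a test of the difference itself, a call that depended on the settings. For CXCL5 the difference of 3.67 ± 0.78 (log2, SE) had an adjusted p of 0.0355, with both NRF2 siRNA libraries above both controls in H2023 and overlapping groups in H460. For CXCL1 the difference of 2.80 ± 0.66 had an adjusted p of 0.0489, with both NRF2 siRNA libraries above the controls in H2023 and below them in H460. Both differences were chosen from 3 comparisons between lines, and the F test over the 3 effects did not pass for either (adjusted p = 0.0630 and 0.0624). The difference passed in 8 of 18 alternatives for CXCL5 and in 5 of 18 for CXCL1, where it was lost with a pseudocount of 0.1 (adjusted p = 0.0518), without a trend (0.0569) and with the replicate block (0.0511).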

How the results depend on the processing

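With 2 libraries per group and 2 residual degrees of freedom, calls within a line were few and depended on the settings, and the depth behind an FPKM value is unknown. Without a filter on low values 0 members and 0 genes passed in A549, H2023 and H460. Other changes in counts were 1 member in A549 when every library had to reach 1 FPKM, 1 in the comparison of siRNAs under the same filter, 79 genes in H2023 without a trend, and 1 member in the difference between lines after rescaling without mitochondrial transcripts (CXCL5). That rescaling moved the median difference of all genes to -0.07 in A549, 0.11 in H2023 and 0.14 in H460 and turned no member's direction. Only 2 of the 5 genes most like ZC3H12A were shared after it. In 1 fit of all 12 libraries with a shared spread, 2, 4 and 5 members passed in A549, H2023 and H460, with 748 genes in H2023 and 4585 in H460. A pseudocount of 0.1 changed no count of calls by over 1.5 times.

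Library numbers are shared between groups but were not shown to pair the samples, since the differences between numbers 0 and 1 correlated at -0.03, 0.31 and 0.16 between the groups of A549, H2023 and H460. With the number as a replicate block, 2, 4 and 5 members passed in A549 (CXCL5 and IL11), H2023 (ZC3H12A, CXCL5, CCL2 and IL11) and H460 (ZC3H12A, CXCL1, CXCL2, IL6 and TNFAIP3), with 711 genes in H2023 and 3177 in H460.

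Leaving out 1 library gave 0 to 3 members called in A549, 0 to 6 in H2023 and 0 to 3 in H460, and 41 to 272, 0 to 1532 and 0 to 3128 genes. It gave 2 to 3 members for the average effect, 0 to 2 for the difference between lines and 0 to 1 for the siRNAs. The library left alone in its group was assumed to vary like the other group. Signs turned for members that had not passed. In A549 the differences ranged from -0.24 to 0.95 for CXCL2, -0.26 to 0.15 for NFKBIA and -0.021 to 0.53 for TNFAIP3. In H2023 TNFAIP3 ranged from -0.32 to 0.13. In H460 the ranges were -1.22 to 0.82 for CXCL5, -1.74 to 0.56 for CXCL8 and -1.31 to 0.063 for NFKBIA. Averaged over the lines, CXCL1 ranged from -0.13 to 0.41 and NFKBIA from -0.39 to 0.065. The effect on NFKBIA in A549 minus that in H460 ranged from -0.12 to 1.26. Averaged over A549 and H2023, NFKBIA ranged from -0.038 to 0.17 and TNFAIP3 from -0.059 to 0.21.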
